A study of Mus musculus with 10 samples.

Results

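The genes that write, copy and oxidise DNA methylation were examined for open chromatin in mouse neural stem cells with and without Smchd1. They are the DNA methyltransferase genes Dnmt1, Dnmt3a, Dnmt3b and Dnmt3l, the gene of the maintenance factor Uhrf1, and the oxidase genes Tet1, Tet2 and Tet3. All 8 genes were found in the RefSeq table, and their peaks were those with a summit inside the gene or within 5 kb of it. These peaks numbered 49 in deleted females, 52 in control females, 44 in deleted males and 46 in control males, or 191 of the 423900 peaks on chromosomes 1 to 19, X and Y of the 4 lists.

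Open chromatin was read by ATAC-seq, where a transposase cuts and tags DNA that is not tightly packed, in 10 libraries of neural stem cells of the C57BL/6 strain. The groups were 3 Smchd1 del/del female libraries, 3 Smchd1 fl/fl female libraries, 2 Smchd1 del/del male libraries and 2 Smchd1 fl/fl male libraries, called deleted and control below. All lines came from floxed embryos of E14.5. The labels describe a retrovirus with Cre and a puromycin cassette, selection from 24 h and harvest on day 7, in a text shared by every sample, so it is not known whether control cells also carried a virus. Deletion was therefore made in cultured cells.

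In mammals, DNA methylation sits mostly on cytosines followed by guanine, the CpG dinucleotide. Dnmt3a and Dnmt3b place new marks, Dnmt3l is a cofactor without catalytic activity that is best known from germ cells, and Dnmt1 copies marks onto the new strand after replication, brought there by Uhrf1, which binds hemimethylated CpGs. Tet enzymes oxidise methylcytosine, a step towards its removal. Smchd1 is a chromosomal protein of the SMC family, needed for silencing of the inactive X chromosome and for methylation of many CpG islands on it.

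The authors deposited 1 peak list per group, called on pooled libraries, so the values below come without replicate error and were not put to a test. The lists rested on 139318421 tags in deleted females, 144613215 in control females, 74674218 in deleted males and 91734730 in control males. On the chromosomes used there were 104316 peaks in deleted females, 130103 in control females, 88159 in deleted males and 101322 in control males, and each list was cut to its 88159 strongest peaks by −log10 q before comparison. Rank 1 is the strongest peak of a list, and ranks place a peak within its own list. Pileup (the height of stacked fragments) and fold enrichment (that height over the local background) are the authors' values and depend on depth, so they describe peaks within a list.

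Open and closed starts of these genes differed in sequence. RefSeq places 15 promoter windows at the 8 genes, each running from 250 bp before to 50 bp after a start, and 10 of them were overlapped by a peak in all 4 equal-length lists while 5 were overlapped by none. The windows below were chosen because they carry that contrast, with 3 closed windows before 3 open ones. Sequences are from RefSeq GRCm38.p6, written in the direction of transcription, with CpG dinucleotides in capitals.

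The first window of Dnmt1 (chr9:20959839-20960138, minus strand) holds 2 CpGs, and the nearest summit lay 6926 to 6974 bp away in the 4 lists.
Dnmt1 start 1: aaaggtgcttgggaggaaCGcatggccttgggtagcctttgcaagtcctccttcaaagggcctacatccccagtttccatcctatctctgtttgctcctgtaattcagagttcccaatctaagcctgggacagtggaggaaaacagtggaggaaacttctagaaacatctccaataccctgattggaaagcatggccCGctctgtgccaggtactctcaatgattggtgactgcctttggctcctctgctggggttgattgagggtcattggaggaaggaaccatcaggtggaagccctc
The third window of Dnmt3a (chr12:3891494-3891793, plus strand) lies inside the gene and holds 18 CpGs, and its nearest summit lay 3974 to 4032 bp away.
Dnmt3a start 3: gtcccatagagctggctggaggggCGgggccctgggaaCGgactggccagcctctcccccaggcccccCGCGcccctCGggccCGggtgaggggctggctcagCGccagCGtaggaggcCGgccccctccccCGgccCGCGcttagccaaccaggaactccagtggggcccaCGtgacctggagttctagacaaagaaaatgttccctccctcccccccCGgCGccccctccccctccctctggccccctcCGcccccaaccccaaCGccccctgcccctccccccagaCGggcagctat
The first window of Dnmt3l (chr10:78042037-78042336, plus strand) holds 6 CpGs, and its nearest summit lay 1251 to 1265 bp away.
Dnmt3l start 1: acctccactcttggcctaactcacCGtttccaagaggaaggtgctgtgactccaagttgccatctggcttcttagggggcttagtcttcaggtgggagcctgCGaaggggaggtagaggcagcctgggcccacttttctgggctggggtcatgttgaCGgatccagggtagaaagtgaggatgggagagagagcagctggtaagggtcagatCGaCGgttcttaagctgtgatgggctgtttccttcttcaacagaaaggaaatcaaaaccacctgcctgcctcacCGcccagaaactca
Of the open windows, the third of Dnmt1 (chr9:20952574-20952873, minus strand) holds 33 CpGs. Its peak also overlaps the second window of Dnmt1, which holds 12 CpGs. The summit lay 291 to 339 bp before the third start, outside the third window, and 17 to 65 bp past the second start.
Dnmt1 start 3: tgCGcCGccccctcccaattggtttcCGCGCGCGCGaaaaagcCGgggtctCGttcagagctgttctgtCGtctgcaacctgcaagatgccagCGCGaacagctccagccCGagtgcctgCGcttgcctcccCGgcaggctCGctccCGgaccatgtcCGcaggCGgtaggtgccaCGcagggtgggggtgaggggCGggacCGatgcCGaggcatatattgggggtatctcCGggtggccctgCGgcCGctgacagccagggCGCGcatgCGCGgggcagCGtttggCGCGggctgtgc
The second window of Uhrf1 (chr17:56304063-56304362, plus strand) also holds 33 CpGs.
Uhrf1 start 2: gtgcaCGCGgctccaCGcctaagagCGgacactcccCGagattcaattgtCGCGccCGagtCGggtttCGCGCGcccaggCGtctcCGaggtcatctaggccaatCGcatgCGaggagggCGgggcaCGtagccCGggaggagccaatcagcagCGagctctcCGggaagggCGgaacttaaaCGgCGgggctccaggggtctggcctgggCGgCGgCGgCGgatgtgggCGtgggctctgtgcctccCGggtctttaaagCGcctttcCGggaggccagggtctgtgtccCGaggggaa
The window of Tet2 (chr3:133544341-133544640, minus strand) is the richest of the 15, with 57.
Tet2: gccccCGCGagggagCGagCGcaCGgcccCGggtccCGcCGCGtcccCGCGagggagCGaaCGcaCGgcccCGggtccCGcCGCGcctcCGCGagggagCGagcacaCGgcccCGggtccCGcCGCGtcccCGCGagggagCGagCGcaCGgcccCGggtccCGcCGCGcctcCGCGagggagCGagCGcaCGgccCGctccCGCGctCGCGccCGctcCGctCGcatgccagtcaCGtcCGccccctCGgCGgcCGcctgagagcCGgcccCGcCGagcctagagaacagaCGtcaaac

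The 15 windows held a median of 18 CpGs, with a range of 2 to 57, against a median of 7 over 32851 windows of 27025 genes. Across all of those windows the share with a peak in all 4 lists was higher in each class of higher CpG number. It was 5.56% at 0 to 4 CpGs, 23.2% at 5 to 9, 73.0% at 10 to 19, 94.0% at 20 to 29 and 97.4% at 30 or more. All 7 windows of the 8 genes with 20 or more CpGs were open in every list. At 10 to 19 CpGs the windows of Tet1 with 17, of Dnmt1 at its second start with 12 and of Uhrf1 at its first start with 12 were open, and the third window of Dnmt3a with 18 was not. The remaining 4 closed windows held 6 CpGs or fewer, namely the first of Dnmt1 and the 3 of Dnmt3l. Windows of 1 gene can overlap, as the first pair of Dnmt3a do, and then share a peak. In the mouse, Dnmt1 is known to start at separate promoters in oocytes and in somatic cells, and Dnmt3a to make a shorter protein from an internal start in embryonic stem cells and germ cells. The table does not say which start belongs to which transcript.

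**Figure D1:**
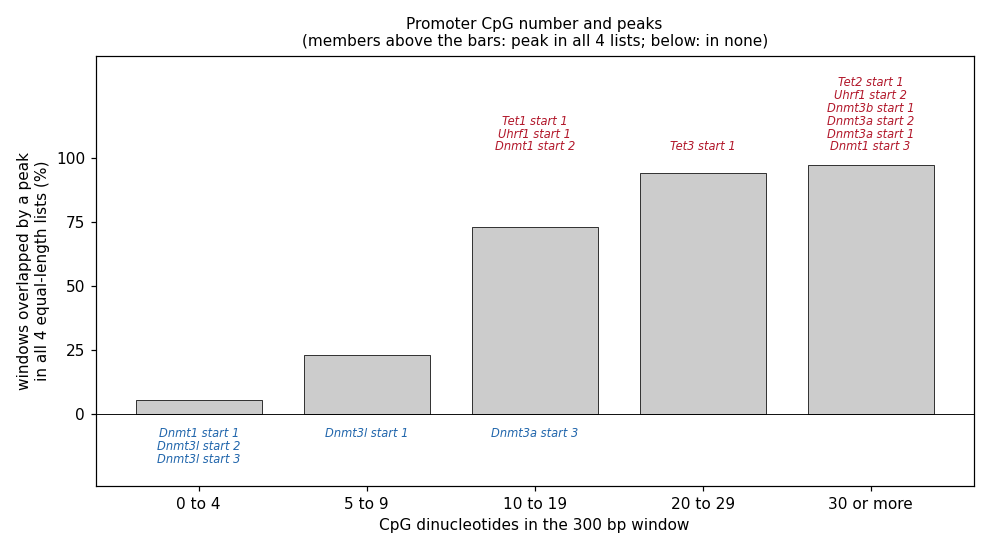
Share of all RefSeq promoter windows of 300 bp that were overlapped by a peak in all 4 equal-length lists (bars, %), by the number of CpG dinucleotides in the window. Windows of the methylation genes are named above the bars where open in all 4 lists and below the axis where open in none, and the only closed one with more than 9 CpGs is the third of Dnmt3a.

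The letters of the windows were searched on both strands for 6 fixed strings. GGGCGG, a string bound by Sp factors, was in 12 of the 15 windows, against 35.7% of all windows. It holds a CpG, and the share over all windows was not matched for CpG number. Closed windows held it too, namely the third of Dnmt3a and the first and second of Dnmt3l. CCAAT, bound by NF-Y, was in 5, against 37.4%, and CCGGAAG, of the ETS type, was in 0, against 8.86%. The E2F string TTTCGCGC was in the third window of Dnmt1 and the second of Uhrf1, and in 106 windows of all, or 0.323%. The related TTTGGCGC was in the third window of Dnmt1 and in 0.514% of all. CGCATGCG, bound by NRF1, was in 3 windows, those of Dnmt1 at starts 2 and 3 and of Uhrf1 at start 2, and in 1.87% of all. Dnmt1 and Uhrf1, which act together when methylation is copied, thus shared TTTCGCGC and CGCATGCG at open starts. The Tet2 window holds 5 copies of GCGAGGGAGCGA, the most repeated string of 12 bases in the 15 windows, looked for after the sequence had been read, and no other window of the 32851 holds more than 1. A match of letters does not show that a factor was bound.

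Among the starts, Tet2 had the strongest peak in every list. Its peak ranked 4357 in deleted females, 3160 in control females, 3080 in deleted males and 2997 in control males, with fold enrichments of 6.12 in deleted females, 6.32 in control females, 7.86 in deleted males and 7.52 in control males. Uhrf1 came next in all 4 lists, with ranks of 9655 in deleted females, 10160 in control females, 6720 in deleted males and 8924 in control males. Both peaks were thus among the strong ones of their lists.

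Dnmt1 and Tet3 followed, in an order that differed with genotype. The Dnmt1 start peak ranked 10412 in deleted females, 14326 in control females, 10105 in deleted males and 12659 in control males. That of Tet3 ranked 14802 in deleted females, 13593 in control females, 11436 in deleted males and 10777 in control males. Dnmt1 therefore stood above Tet3 in both deleted lists and below it in both control lists, by small distances that carry no replicate error.

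The de novo enzymes and Tet1 had weaker start peaks. Dnmt3b ranked 20025 in deleted females, 21853 in control females, 21019 in deleted males and 25415 in control males. Dnmt3a ranked 22942 in deleted females, 26757 in control females, 23840 in deleted males and 25591 in control males. These neighbours lay close together, and in control males they were nearly level. Fold enrichment at the Dnmt3a start was 3.73 in deleted females, 3.81 in control females, 4.34 in deleted males and 4.55 in control males. At the Dnmt3b start it was 4.86 in deleted females, 5.24 in control females, 6.02 in deleted males and 5.69 in control males. Pileup was lower in the deleted than in the control list of each sex at both starts. Tet1 was last in every list, at 28911 in deleted females, 29534 in control females, 25254 in deleted males and 27155 in control males. Dnmt3l had no summit within 1 kb of any of its starts.

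**Figure D2:**
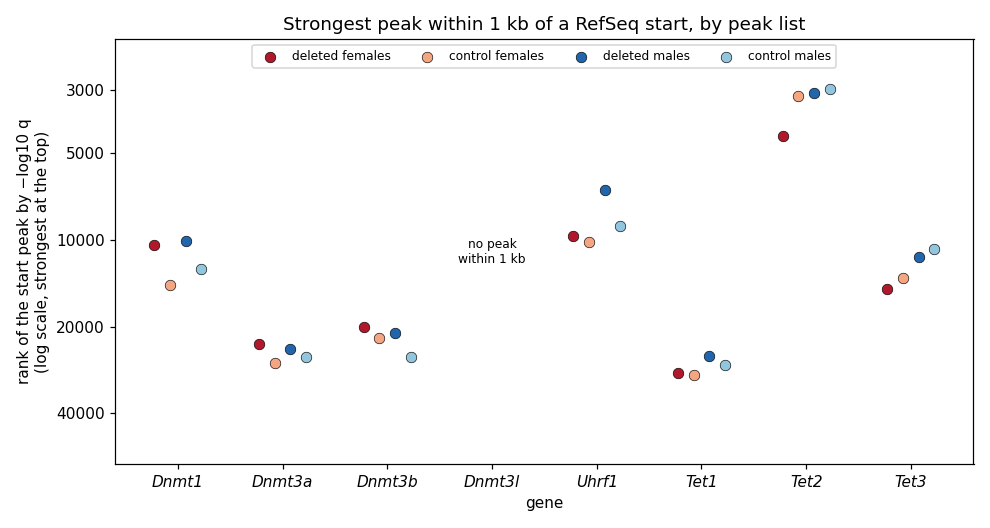
Rank of the strongest peak within 1 kb of a RefSeq start (log scale, strongest at the top) for each gene, with 1 point per peak list. Tet2 lies between 2997 and 4357 and Tet1 between 25254 and 29534, and Dnmt3l has no point. By rank, Dnmt1, Dnmt3a and Dnmt3b are each higher in both deleted lists than in both control lists, whereas their pileup is lower after deletion in each sex.

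The genes with the nearest start ranks over the 4 lists, of 10962 compared, were Adamts2 beside Dnmt3a, Sec16a beside Dnmt1 and Rbm28 beside Dnmt3b. Sec16a ranked 10072 in deleted females, 14193 in control females, 9946 in deleted males and 13036 in control males, within 0.05 of Dnmt1 on the log2 scale in every list. Adamts2 ranked 23599 in deleted females, 26665 in control females, 24484 in deleted males and 25496 in control males, within 0.05 of Dnmt3a. Rbm28 ranked 19827 in deleted females, 21990 in control females, 21742 in deleted males and 25644 in control males, within 0.05 of Dnmt3b. All 3 were picked for this likeness, which says nothing of shared function.

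Peaks away from the starts made up most of the loci. Peaks that overlapped across lists were merged into 60 sites, of which 10 lay at a start, 46 elsewhere in a gene body and 4 in the flanks. Of these sites 39, or 65%, had a peak in all 4 lists as deposited, against 45.5% of the 150516 sites of the genome. Sites with at least 1 peak among the 44079 strongest of a list numbered 32, and all 32 were in 4 lists, against 96.4% of such sites in the genome. Of the other 28 weaker sites 7, or 25%, were in 4 lists, against 17.4% of such sites in the genome, and 17, or 60.7%, were in 1 list, against 46.2%. Exon and intron boundaries were not used here, so a site inside a gene is given by its distance from the nearest start.

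Dnmt3a, the main de novo enzyme of the brain after birth, had the most sites, 16 over a gene of 112885 bp (chr12:3801559-3914443), of which 12 were in all 4 lists. In the equal-length lists it had 12 peaks in deleted females, 11 in control females, 16 in deleted males and 15 in control males. Tet3 had 15 sites, 8 of them in all lists (chr6:83362373-83457208), with 10 peaks in deleted females, 9 in control females, 8 in deleted males and 8 in control males.

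The other genes had fewer peaks, and most differed by 1 peak or none between deleted and control lists. Dnmt1 (chr9:20907206-20959888) had 5 in each list, and Uhrf1 (chr17:56303337-56323486) and Tet2 (chr3:133463677-133545136) had 3 in each. Dnmt3b (chr2:153649411-153687730) had 3 in deleted females, 3 in control females, 4 in deleted males and 3 in control males. Tet1 (chr10:62804570-62887469) had 4 in deleted females, 3 in control females, 3 in deleted males and 4 in control males. Dnmt3l (chr10:78042287-78063622) had 1 in deleted females, 3 in control females, 2 in deleted males and 2 in control males. All 8 genes together had 41 peaks in deleted females, 40 in control females, 44 in deleted males and 43 in control males. The median difference per gene was 0 in each sex, as it was over the 17803 protein-coding genes with a peak in females and the 17741 in males.

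**Figure D3:**
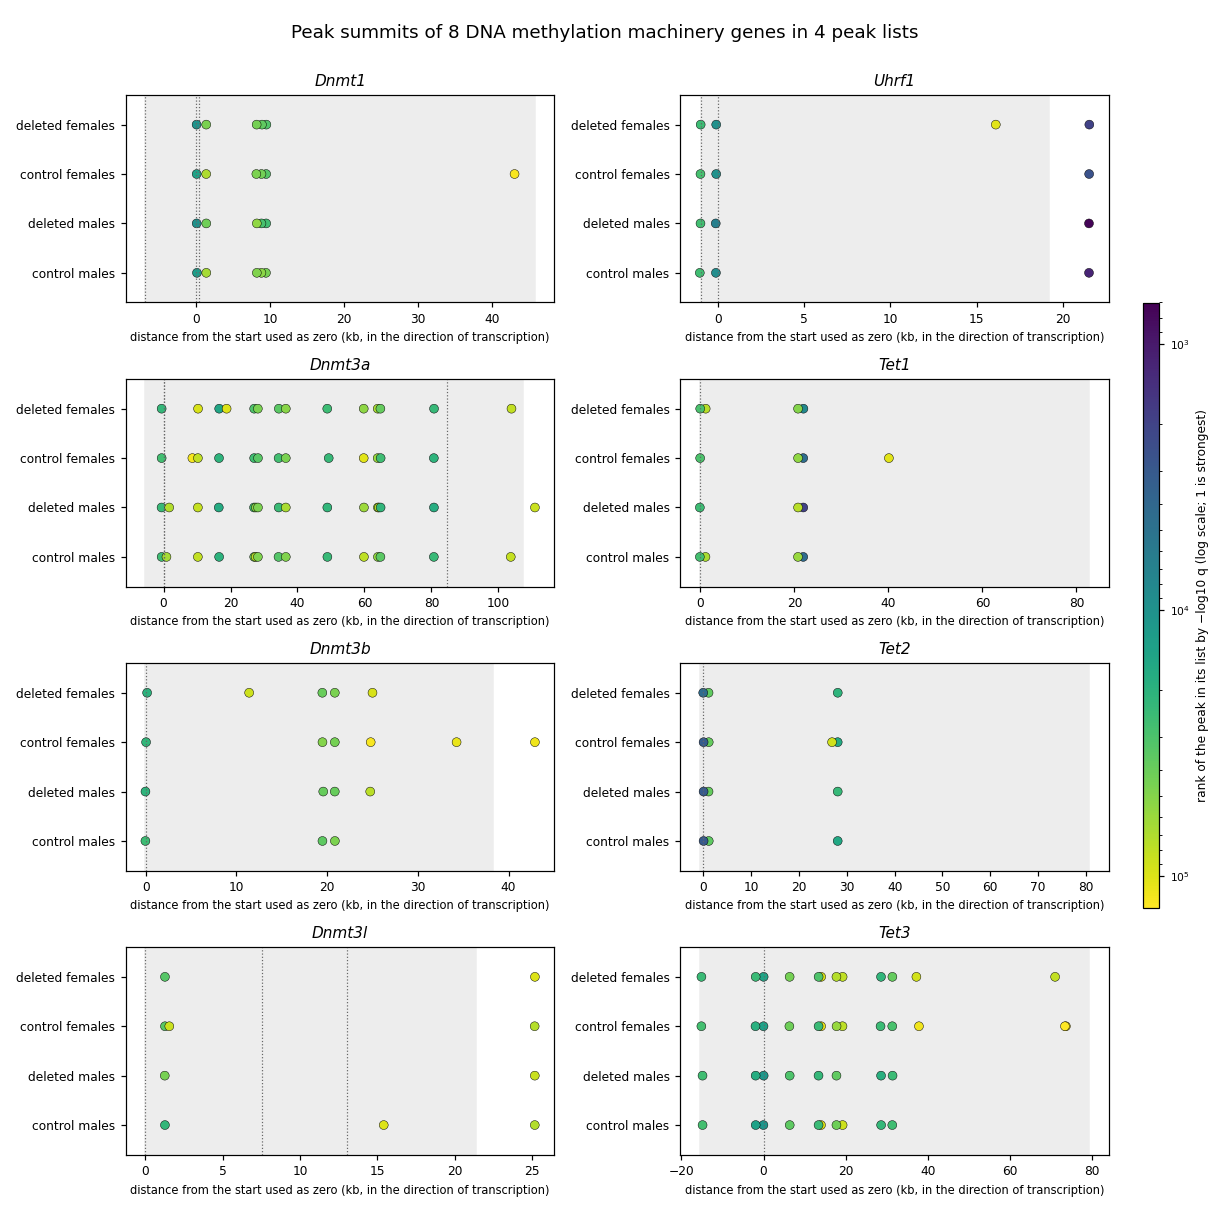
Summits of all deposited peaks within 5 kb of the 8 genes, with 1 row of points per list, against the distance from a gene start (kb, in the direction of transcription). Shading is the gene body, dotted lines are RefSeq starts, and colour is the rank of the peak in its list (log scale, dark is strong), and most strong points line up in all 4 rows.

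The strongest peak of Tet1 was not at its start. A site at chr10:62865129-62865895, 21.9 kb inside the gene and within 1 kb of an end of the noncoding RNA gene Gm51805, ranked 8036 in deleted females, 4462 in control females, 1976 in deleted males and 4299 in control males. Its fold enrichment was 7.12 in deleted females, 8.53 in control females, 12.01 in deleted males and 10.5 in control males. The pileup was 104 in deleted females, 136 in control females, 109 in deleted males and 109 in control males. The part of depth in these values was not tested. The control lists gave nearly the same rank in both sexes, and the deleted lists lay on either side of it. At Uhrf1, too, the strongest site was away from the start.

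That site, in the 3 prime flank of Uhrf1 at chr17:56325494-56326534, lies within 1 kb of an end of Kdm4b, a histone lysine demethylase gene. It was the strongest site of all 60, with ranks of 1960 in deleted females, 2603 in control females, 740 in deleted males and 1175 in control males. The peak nearest to Dnmt3l, at chr10:78043247-78043934, lies 1.26 kb past its first start and within 1 kb of the start of Aire, a gene known for self-tolerance in the thymus. It ranked 33190 in deleted females, 33717 in control females, 44459 in deleted males and 22472 in control males. Whether these sites belong to the gene they were assigned to or to its neighbour was not tested.

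Tet2 had an internal site 28.1 kb from its start, at chr3:133516178-133516535, with ranks of 21001 in deleted females, 16910 in control females, 23496 in deleted males and 16130 in control males. Dnmt1 had a row of sites 7.78 to 9.07 kb inside the gene. The one farthest from the start ranked 31893 in deleted females, 32980 in control females, 26652 in deleted males and 44732 in control males. The strongest site of Dnmt3a lay 16.4 kb past a start, at chr12:3823244-3823885, in all lists but that of control females, where a site at chr12:3887299-3888168 ranked 20611. The site at 16.4 kb ranked 15237 in deleted females, 20763 in control females, 17055 in deleted males and 20277 in control males. Tet3 had its strongest site at the tabled start, also within 1 kb of a start of the gene B230319C09Rik. Which gene that peak belongs to was not tested. A further site at the outer end of Tet3, chr6:83455743-83457254, ranked 24364 in deleted females, 27558 in control females, 26531 in deleted males and 27217 in control males.

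The study compared deleted with control lines, and the first question here was whether deletion took away or opened any peak of these genes. A peak was called gained where it was among the 44079 strongest of the deleted list and overlapped none of the 88159 of the control list by even 1 bp, and lost in the opposite case. In females 0 of 27 candidate peaks were gained, which allows a share of up to 11.1%, and 1.13% of all candidates were. Lost peaks in females were 0 of 29, which allows up to 10.3%, against 0.44% of all. In males 0 of 30 were gained, which allows up to 10%, against 0.837% of all, and 0 of 27 were lost, which allows up to 11.1%, against 1.09%. The limits are 3 counts of the total and cover counting error only. With so few candidates, shares like those of the genome could not have been detected.

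Without the demand for strength, a few weak peaks were in 1 list of a pair. In females 3 of 41 peaks were in the deleted list only, against 15.3% of all, and 2 of 40 in the control list only, against 16.9%. In males 3 of 44 were in the deleted list only, against 16.9%, and 1 of 43 in the control list only, against 18.7%. These 9 peaks ranked between 53531 and 85576, and 6 of them belonged to Dnmt3a. The strongest, in Dnmt3a at chr12:3866692-3866902, ranked 53531 in deleted females and had a counterpart at 102947 in the full control list. Of the 60 sites, none was in both deleted lists and neither control list, against 0.984% of all sites of the genome, and none was in both control lists and neither deleted list, against 5.59%.

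Changes of strength were read from the rank ratio, the control rank divided by the deleted rank at a merged site, so that a positive log2 value means a stronger site after deletion. It was taken where both equal-length lists had a peak and at least 1 of the pair was among the 44079 strongest. In females 30 sites qualified, with a median of -0.02 and a range of -0.85 to 0.46 on the log2 scale, and 15 lay above 0 and 15 below. None reached a ratio of 2 in either direction, whereas 3.63% of all 48404 sites were stronger and 2.76% weaker by that much. In males 31 sites had a median of 0.24 and a range of -0.98 to 1.12, and 23 lay above 0 and 8 below, against 49.7% above 0 over all sites. A ratio of 2 was passed by 1 site upwards and 0 downwards, against 3.32% stronger and 3.55% weaker of all 48063 sites. With so few sites the shares past a ratio of 2 cannot be set apart from those of the genome. The share above 0 was not tested, since the sites are not independent and each group has 1 list.

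The 1 site was the internal one of Tet1, at 1.12 in males, a 2.18-fold shift in rank, and at 0.81 and so below a ratio of 2 when ranked by pileup. It was at -0.85 in females, where it had the lowest value of the 30 sites. Near the other end in males was the Dnmt3l site beside Aire, at -0.98, against 0.02 in females. The sites inside Dnmt1 at 9.07 and 8.43 kb were at 0.75 and 0.87 in males, and at 0.05 and 0.22 in females. The site beside them at 7.78 kb was too weak to be compared. It went the other way in males, with rank 54492 in the deleted list and 48360 in the control list.

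**Figure D4:**
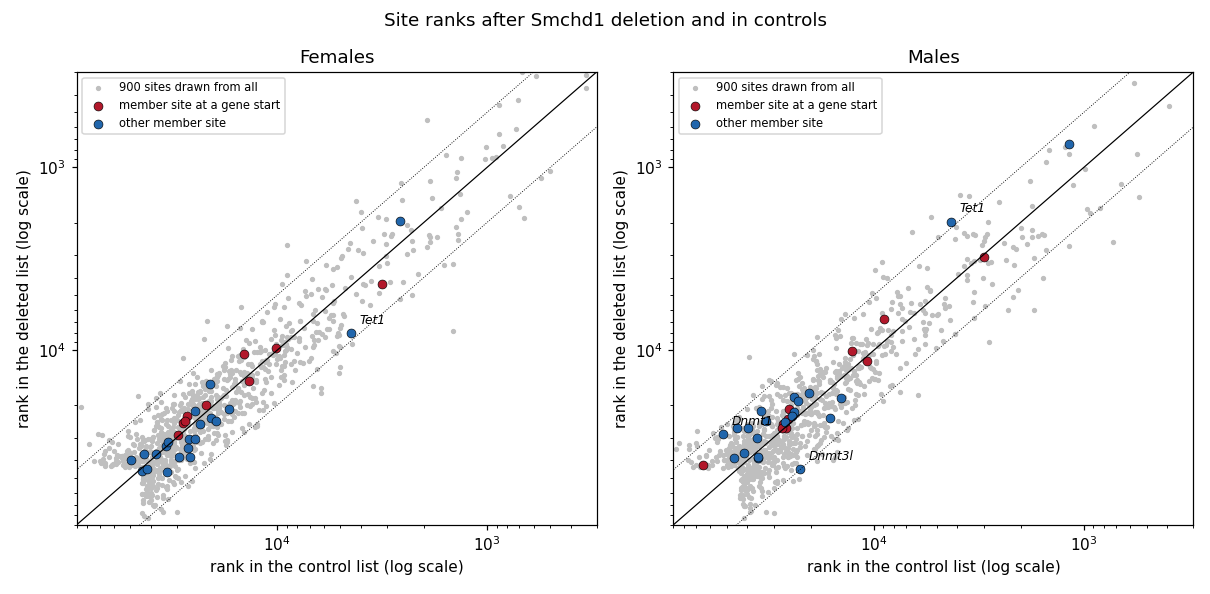
Rank of each site in the deleted list (vertical) against its rank in the control list (horizontal), both on log scales with the strongest at the top and right, for females and males. Red points are sites at a start, blue points other sites of the 8 genes, grey points a draw from all sites, the solid line marks equal rank and the dotted lines a ratio of 2, and the Tet1 site lies below the solid line in females and above the upper dotted line in males.

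Both sexes could be compared at 29 sites, of which 11 were stronger after deletion in both, 4 were weaker in both and 14 ran in opposite directions. Over 43945 sites of the genome the shares were 27.1%, 30.5% and 42.3%. By −log10 q, all 3 Dnmt1 sites that could be compared in both sexes were stronger in both. The Dnmt1 site at 7.78 kb was too weak to be compared and was weaker after deletion in males. It ranked 44246 in deleted females, 46924 in control females, 54492 in deleted males and 48360 in control males. The start peak of Dnmt1 was at 0.46 in females and 0.33 in males on the log2 scale. The −log10 q of that peak was itself lower after deletion, at 45.0 in deleted females, 48.4 in control females, 43.6 in deleted males and 45.9 in control males. Its fold enrichment was 6.02 in deleted females, 5.94 in control females, 7.75 in deleted males and 7.68 in control males. Its pileup was 106 in deleted females, 115 in control females, 82 in deleted males and 87 in control males. These measures depend on depth, and other rankings were not followed at the Dnmt1 sites. Of 3 Tet2 sites 2 were weaker in both sexes. The internal one was at -0.31 in females and -0.54 in males. The start one was at -0.46 in females, or -1.59 when ranked by pileup, and at -0.04 in males. Of 7 Dnmt3a sites 2 were stronger in both sexes, and the other 5, all internal, were weaker in females and stronger in males. At 1 of those, chr12:3871556-3872105, the ranks were 38084 in deleted females, 25941 in control females, 21551 in deleted males and 34324 in control males. For each gene the sites share their libraries and lie close together, so they are not independent.

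Between the sexes, 3 sites were stronger by a rank ratio of 2 in deleted males than in deleted females and 0 were weaker, against 2.12% and 2.75% of all sites. They were the internal Tet1 site at 2.02 on the log2 scale, the Uhrf1 flank site near Kdm4b at 1.41 and a Tet3 site 17.7 kb inside the gene at 1.01. In control males over control females 1 site was stronger, the Uhrf1 flank site at 1.15, and 0 were weaker, against 1.54% and 1.8% of all sites. The Tet1 site was at 0.05 there. Male lists rest on fewer tags and libraries than female lists, and the part of depth in these values was not tested.

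Another 31 genes of the pathway were listed by role. Of these, 29 had a start peak in all 4 equal-length lists, as did 63.0% of 17491 protein-coding genes with a tabled start, and every gene had a peak. They held 77 peaks in deleted females, 85 in control females, 78 in deleted males and 77 in control males. Of their candidates in females 0 of 52 were gained, against 1.13% of all candidates, and 0 of 58 lost, against 0.44%. In males 0 of 59 were gained, against 0.837%, and 1 of 57 lost, against 1.09%. The lost peak, at chr16:8686205-8686424, lies in the 5 kb flank of Usp7 (chr16:8688722-8757067), a deubiquitinase gene whose product is known to bind Dnmt1 and Uhrf1. Which gene the peak belongs to was not tested. The peak ranked 42697 in control males, close to the limit of 44079, with a fold enrichment of 4.17, and had no counterpart in deleted males.

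By role, the cofactors of methylation, 11 genes with Uhrf2, Pcna and Hells among them, had 24 peaks in deleted females, 30 in control females, 26 in deleted males and 28 in control males. The 7 readers listed, such as Mbd4, which binds methylated CpGs, had 22 in deleted females, 19 in control females, 18 in deleted males and 16 in control males. The 8 genes of oxidation and excision, with the glycosylase gene Tdg, had 19 in deleted females, 22 in control females, 22 in deleted males and 21 in control males. The 5 genes of methyl donor supply, with Mat2a, had 12 in deleted females, 14 in control females, 12 in deleted males and 12 in control males. Per gene, 3 had more peaks in deleted females than in control females, 9 fewer and 19 as many, and 8 had more in deleted males than in control males, 6 fewer and 17 as many. Over all protein-coding genes with a peak, 21.0% had more, 24.1% fewer and 54.9% as many in deleted females, and 26.7% had more, 21.9% fewer and 51.4% as many in deleted males.

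The genes without a start peak in every list were Dppa3, an oocyte and early embryo factor known to restrain Uhrf1, with no summit within 1 kb in any list, and Nsd1, a histone methyltransferase gene. Nsd1 had a weak start peak at rank 69967 in deleted females and 74853 in deleted males and none in the control lists. Trim28, the corepressor that zinc finger proteins such as Zfp57 recruit to imprinted loci, was picked after its values had been seen. Its start peak ranked 5692 in deleted females, 13876 in control females, 8285 in deleted males and 14074 in control males, and was thus stronger after deletion in both sexes. Pileup at that peak was 145 in deleted females, 137 in control females, 105 in deleted males and 105 in control males.

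Smchd1 itself (chr17:71344489-71475366) kept a start peak, at rank 754 in deleted females, 597 in control females, 271 in deleted males and 1226 in control males. It does not check the deletion, since the labels do not say which segment was removed. Of 14 neural stem cell markers 12 had a start peak in all 4 lists, as did 4 of 6 markers of neurons, 4 of 5 of astrocytes, 2 of 5 of oligodendrocytes, 1 of 5 of microglia and blood, 1 of 4 of endothelium and 3 of 5 of fibroblasts. Mog, an oligodendrocyte gene, had no peak in the equal-length lists, and 1 weak peak in each deposited list but that of deleted males. Neural stem cell markers held 60 peaks in deleted females against 57 in control females, and 70 in deleted males against 67 in control males. Neuron markers held 66 in deleted females against 79 in control females, and 67 in deleted males against 83 in control males. Oligodendrocyte markers held 9 in deleted females against 6 in control females, and 10 in deleted males against 8 in control males. Astrocyte markers held 22 in deleted females against 21 in control females, and 20 in deleted males against 25 in control males. The other 3 marker lists held 10 to 16 peaks in each list. The part of these differences in the values of the methylation genes was not tested.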

How the data were processed

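ATAC-seq peak lists of 4 groups were used, with 1 list per group. Per the file headers, peak calling used MACS 2.1.0.20140616 on 1 pooled alignment for each group, without a control sample, at a shift of 75 bp, an extension of 150 bp and a limit of 0.05 on the q-value. Per the submitters' processing notes, Trim Galore 0.4.0, Bowtie2 2.2.5, SAMtools, Picard and MACS2 were used with the build mm10. Pileup is a signal height deposited with each peak, with 1 tag kept per position. The authors also gave fold enrichment, a ratio over local background, and a −log10 q value. These served to describe peaks and to order them inside a list.

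Peaks were ranked by −log10 q on chromosomes 1 to 19, X and Y, each list was cut to 88159 peaks, and overlap meant 1 bp. At rank 88159 the −log10 q was 4.27 in deleted females, 6.59 in control females, 1.39 in deleted males and 4.52 in control males, so the weakest peaks kept differ in reliability. Tag size was 63 bp in deleted females, 53 bp in control females, 59 bp in deleted males and 62 bp in control males. Start peaks have a summit within 1 kb of a RefSeq start. Genes, starts and promoter sequences came from RefSeq tables of GRCm38.p6, the sequence build of mm10. The genes named are Smchd1, the 8 genes with their start and strongest peaks and any called peak, pathway genes with a called peak or none, and the 3 genes with start ranks nearest to those of a methylation gene. Outside that rule, neighbouring genes are named where a site lies near them, pathway and marker genes as examples or exceptions to a count, and Trim28 after its values were seen. The methylation genes and all lists were chosen with earlier results of these data known, and the rank ratio was added after the data had been seen. Of the pathway genes planned, 1 is not reported here and was left out of the counts. Alternatives changed the overlap, list length, threshold, margin, ranking value, flank and assignment. No p-value was computed, as each group has 1 list. Male samples carry the word female in their description, and their titles and sex field were followed instead. Software was matplotlib 3.10.9, scipy 1.17.1, numpy 2.4.6 and pandas 2.3.3 under Python 3.11.15.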

Additional observations from a re-analysis of the deposited data

Results flagged for a closer look

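The internal Tet1 site ran in opposite directions in the sexes. Its log2 rank ratio was -0.85 in deleted over control females and 1.12 in deleted over control males. By −log10 q it was the only one of the 29 sites comparable in both sexes that passed a ratio of 2 in either. Ranked by pileup, it did not pass in males, at 0.81, where a site of Uhrf1 did. Sites of Dnmt3a and Tet2 passed by pileup in females. Each value rests on 1 pooled list per group, and the difference between the sexes was not tested.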

How the results depend on the processing

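No paired analysis was possible because the deposited lists pool the libraries of a group, and for the same reason no library could be left out. Under the alternatives, 86 values of the main counts stayed within 1.5 times or kept their count of 0, and 10 moved. In the stronger part of the equal-length lists the genes had 27 peaks in deleted females and 27 in control males. Without a margin for strength, 3 peaks were gained and 2 lost in females, and 3 gained and 1 lost in males. Ranked by pileup, 1 peak was gained in males, in Dnmt3a at chr12:3808578-3808809, against 1.23% of all candidates. It lies within the merged Dnmt3a start site, which had a peak in all 4 lists. Its rank was 34306 by pileup and 71721 by −log10 q. In females 1 site was stronger by a ratio of 2 when ranked by pileup, an internal one of Dnmt3a at 1.04 on the log2 scale. The Tet2 start, at -1.59, was the 1 weaker site. Of all sites 2.89% were stronger and 1.29% weaker by that much. In males the Tet1 site lost its call by pileup, at 0.81, and the 1 stronger site was the Uhrf1 flank site at 1.03. Ranked by fold enrichment, 1 site was weaker in males, that of Dnmt3l at -1.25, and the Tet1 site stood at 1.22. In females the Tet1 site was at -0.48 by pileup and -0.95 by fold enrichment. The Tet1 site thus kept its direction in each sex under these rankings. Other sites were followed under them only where they passed a ratio of 2. Whether the other directions given above hold under these rankings was not tested.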
